A study of Arabidopsis thaliana and Zea mays with 822 samples.

Results

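The plants described here were T1 Arabidopsis thaliana plants, the first transgenic generation after floral transformation, that carried vCasΦ and a ribozyme-flanked AtPDS3 gRNA10 guide. They were chosen by their labels alone, as all leaf libraries of this enzyme and guide cassette with either of 2 guide promoters: 46 plants with the CmYLCV promoter (CmYLCVp plants), 36 plants with the UBQ10 promoter (pUB10 plants), together 82 of the 822 samples of the series. The series tested the compact nuclease CasΦ and its variants at AtPDS3 and other target genes by amplicon sequencing, in transfected protoplasts and in transgenic plants.

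All 82 transgenic plants were in the rdr6-15 mutant background of the Columbia-0 accession, carry a defect in RNA-dependent RNA polymerase 6, and were sampled as leaf tissue at 3 to 4 weeks. Both promoter groups expressed vCasΦ from a UBQ10 promoter with an rbcS-E9 terminator, from the same vector version. The guide cassette was read from the CmYLCV promoter with a 35S terminator in CmYLCVp plants, and from the UBQ10 promoter with an rbcS-E9 terminator in pUB10 plants, so promoter and terminator of the guide cannot be told apart. Each T1 plant is a separate transformation event and was sequenced once. The 3 untransformed plants served as controls, were sampled at the same age and are labelled as wild type, so that transgene and rdr6-15 background differ together between them and the transgenic plants. In DNA from whole leaf tissue, the share of cells that carry an edit and the number of edited alleles per cell cannot be told apart.

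CasΦ is a small nuclease of bacteriophage origin that processes its own guide RNA, recognises a T-rich protospacer adjacent motif (PAM) on the 5′ side of its target and cuts with staggered ends on the far side. In vCasΦ the tip of an alpha helix, helix α7, is replaced by a glycine-serine linker. Guide RNAs of plant editing tools are often read by RNA polymerase III from a U6 promoter. CmYLCV, a caulimovirus promoter, and UBQ10, the promoter of a ubiquitin gene, are both read by RNA polymerase II and active in most tissues, and the hammerhead ribozyme before the guide and the hepatitis delta virus ribozyme after it cut the guide out of such a transcript. AtPDS3 encodes phytoene desaturase, an enzyme of carotenoid synthesis, and plants that have lost both copies are white because chlorophyll bleaches without carotenoids. Since edits arise separately in different cells of a T1 plant, a leaf can hold many deletion patterns, while an edit made in an early cell can be shared by all of its descendants.

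AtPDS3 (AT4G14210) lies on the minus strand of chromosome 4 at chr4:8190190-8195320 in the TAIR10.1 assembly, and 3 transcripts are annotated. The gRNA10 site was placed by matching bases named in the substitution patterns to this assembly, which gave 1 match in the gene, at chr4:8194265-8194284 on the plus strand, with the PAM at chr4:8194262-8194264. All 20 guide bases lie in a coding exon of 89 bp (chr4:8194197-8194285), and 1 further exon base separates the guide from an intron. Since the gene is read from the other strand, the intron base next to the guide belongs to the splice acceptor of this exon. The site is shown from the PAM on, on the plus strand of the assembly from chr4:8194262, first with the guide in capitals and then with the intron in capitals, to show how close the guide lies to the acceptor.
guide: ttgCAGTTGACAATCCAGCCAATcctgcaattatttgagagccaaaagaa
intron: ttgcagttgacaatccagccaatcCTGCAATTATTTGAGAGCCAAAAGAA

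A deletion pattern is named by its start and its length, so that -5:9D starts at position -5 and removes 9 bp. Position -1 is nucleotide 18 of the guide, position 1 is nucleotide 19, and there is no position 0. The deletions on which the results turn are shown on the same strand with the removed bases, as labelled, in capitals. The first, -5:9D, led most plants, the next 3 were among the 10 most frequent, and the last 3 took nearly all edited reads of 1 CmYLCVp plant each. The line for -16:24D starts at chr4:8194259, and the others start at the PAM.
-5:9D: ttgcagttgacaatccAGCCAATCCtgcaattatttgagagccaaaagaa
-1:5D: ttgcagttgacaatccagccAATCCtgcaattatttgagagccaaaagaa
-4:4D: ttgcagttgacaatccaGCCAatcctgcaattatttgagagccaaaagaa
-4:8D: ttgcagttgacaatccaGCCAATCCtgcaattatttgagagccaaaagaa
-2:9D: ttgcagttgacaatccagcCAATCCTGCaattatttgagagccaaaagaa
-16:24D: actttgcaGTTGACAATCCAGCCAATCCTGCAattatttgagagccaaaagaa
-6:31D: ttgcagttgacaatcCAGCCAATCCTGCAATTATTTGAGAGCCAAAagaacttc

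A deletion between repeated bases can be placed in several ways that leave the same product. The 9 bp of -5:9D are a copy of a 6 bp repeat (CAATCC) with the bases that separate it from the other copy. Both copies are in capitals in the next line. The same product thus also arises from a deletion wholly inside the exon.
-5:9D repeats: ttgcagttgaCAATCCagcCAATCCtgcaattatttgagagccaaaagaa
The repeat was 4 bp for -16:24D, 3 bp for -4:4D, 2 bp for -1:5D and for -2:9D, 1 bp for -6:10D, and 0 bp for -4:8D and -6:31D.

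The deposited files hold the read count of every pattern in a library. Libraries of CmYLCVp plants held 1010539 to 2880181 reads, those of pUB10 plants 1252014 to 2437975 reads, and those of untransformed plants 2290389 to 3017722 reads. Reads were counted as edited when their pattern held an indel of 3 bp or more and was seen in 100 or more reads of that library, and the edited share is the percentage of all reads of the plant, usually called editing efficiency. The 100 reads correspond to 0.00347% to 0.00990% of the reads of a CmYLCVp plant and 0.00410% to 0.00799% of those of a pUB10 plant. No 2 libraries among the 85 were identical. Intervals for single plants below are 95% Wilson intervals and cover counting error only, since the reads are PCR products without molecular identifiers. Of the comparisons of CmYLCVp with pUB10 plants, 8 measures form 1 family for the Benjamini-Hochberg adjustment, and differences are CmYLCVp minus pUB10.

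The first comparison asked whether the promoter that drives the guide changes how much of AtPDS3 was edited in a leaf. The edited share ranged over 0.315% in the lowest CmYLCVp plant, a median of 4.33% and 71.8% in the highest, against 0.0795%, 17.9% and 53.7% in pUB10 plants. The ranges overlapped widely, the CmYLCVp plants reaching higher and having the lower median. The middle of the CmYLCVp plants (quartiles) lay between 0.987% and 9.05%, that of the pUB10 plants between 9.09% and 33.5%, so these middle ranges did not overlap. The medians differed by -13.6 percentage points, and the typical difference between a CmYLCVp and a pUB10 plant (Hodges-Lehmann shift) was -10.1 points with a 95% interval of -16.5 to -4.81. A CmYLCVp plant was higher than a pUB10 plant in a fraction of 0.298 of all pairs (two-sided permutation test of the rank sum, p = 0.00154, adjusted p = 0.00411). Compared by means, 12.7% in CmYLCVp and 20.8% in pUB10 plants, the difference was -8.12 points with an adjusted p of 0.0804, and among libraries at or above the median depth it was -20.9 points with an adjusted p of 0.246 (23 and 18 plants).

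**Figure D1:**
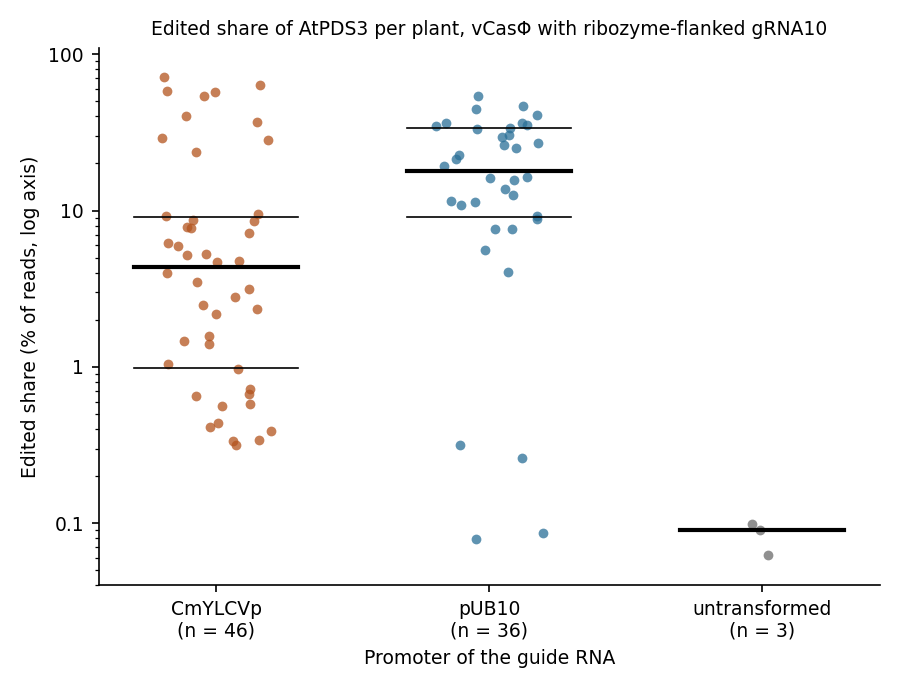
Edited share of AtPDS3 (% of all reads, log axis) in each CmYLCVp, pUB10 and untransformed plant. Points are plants, the thick line is the median and thin lines are quartiles. The median was 4.33% in CmYLCVp plants and 17.9% in pUB10 plants, while the highest plant, at 71.8%, carried CmYLCVp.

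By range of edited share the groups were filled differently. Of the CmYLCVp plants 24 had between 1% and 10% of reads edited and 5 between 10% and 50%, against 6 and 25 of the pUB10 plants. These bins were chosen with the values known and are a description. Above 50% were 5 of 46 CmYLCVp plants (10.9%, exact interval 3.62% to 23.6%) and 1 of 36 pUB10 plants (2.78%, 0.0703% to 14.5%), a difference that did not pass Fisher's exact test (two-sided, p = 0.223). Below 1% were 12 of 46 CmYLCVp plants (26.1%) and 4 of 36 pUB10 plants (11.1%, Fisher's exact test, p = 0.102). Both directions turned at the other thresholds tried, with 7 CmYLCVp and 11 pUB10 plants above 30% (p = 0.113) and 0 and 2 plants below 0.1% (p = 0.19).

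The plants with the most editing were all led by the same deletion. CmYLCVp plant 30 had the highest share, 71.8% (71.7% to 71.8%), in 239 patterns. The other CmYLCVp plants above 50% were plant 15 with 63.4%, plant 5 with 58.0%, plant 18 with 57.0% and plant 17 with 54.3%, with 222, 244, 260 and 208 patterns in that order. The highest pUB10 plant, plant 9, had 53.7% (53.7% to 53.8%) in 259 patterns. In all 6, -5:9D was the leading pattern, with 19.0% to 32.6% of the edited reads in CmYLCVp plants and 19.9% in the pUB10 plant. CmYLCVp plant 27, with 40.2% of reads edited, had a further 41.6% of reads whose pattern was not resolved. These are not counted as edited, so its rank and its place below 50% depend on them.

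At the low end, few patterns of a plant passed the read minimum, and these were frequent ones. Rare patterns of such plants fall below this minimum. The lowest CmYLCVp plant, plant 25, had 0.315% of reads edited (0.307% to 0.322%) in 19 patterns, with 21.4% of the edited reads in -5:9D. The 12 CmYLCVp plants below 1% held 15 to 35 patterns, and -5:9D led 11 of them. The lowest pUB10 plant, plant 22, had 0.0795% in 7 patterns, with 34.6% of the edited reads in -5:9D, which also led the other 3 pUB10 plants below 1%.

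The untransformed plants give the level at which such patterns were counted in plants without the transgene. Their edited shares were 0.0988% (0.0953% to 0.102%), 0.0623% (0.0592% to 0.0656%) and 0.0897% (0.0862% to 0.0934%). Between 8 and 11 patterns made up these reads, all 10 most frequent patterns of the transgenic plants were among them, and -5:9D held 27.1%, 29.8% and 27.1% of them. Their source was not tested. All 46 CmYLCVp plants lay above the highest untransformed plant, whereas 34 of 36 pUB10 plants did, with plants 22 (0.0795%, 0.0754% to 0.0838%) and 31 (0.0864%) inside the range of the controls. Both groups were higher than the controls by an exact permutation test of the rank sum (adjusted p = 0.000217 for CmYLCVp and 0.00241 for pUB10 plants, 3 controls).

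Next, the number of different patterns past the read minimum in a leaf was compared, which was lower in CmYLCVp plants. A CmYLCVp plant held 11 to 260 patterns with a median of 37.5, and a pUB10 plant 7 to 259 with a median of 126. The extremes were alike and the medians were not. The difference of medians was -88.5 patterns (Hodges-Lehmann shift -80, 95% interval -100 to -54, adjusted p = 0.00104). Since a plant with more edited reads shows more patterns past the read minimum, the number expected in 1000 edited reads of each plant was computed as well. It was 35.0 in CmYLCVp and 89.1 in pUB10 plants at the median (difference -54.1, adjusted p = 0.00072), and 66.3 and 105 (difference -39.0, adjusted p = 0.00016) when patterns needed only 10 reads, an alternative chosen after seeing the data. Both figures were computed from patterns that had already passed the read minimum. Rare patterns of plants with few edited reads were thus left out beforehand. Neither figure fully takes out the difference in edited reads (medians 77050 in CmYLCVp and 351502 in pUB10 plants).

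The effective number of patterns, the number of equally frequent patterns that would give the same chance of drawing the same pattern again, gives little weight to rare ones. It had medians of 11.1 in CmYLCVp and 13.8 in pUB10 plants, a difference of -2.66 (Hodges-Lehmann shift -2.64, -4.09 to -1.22, adjusted p = 0.00104). With a read minimum of 10, the medians were 13.4 and 14.3 and the call was lost (difference -0.908, adjusted p = 0.0662). Evenness, which is 1 when all patterns of a plant are equally frequent and near 0 when 1 pattern holds nearly all reads, did not differ beyond the spread between plants, with medians of 0.767 in CmYLCVp and 0.691 in pUB10 plants (shift 0.0459, -0.0194 to 0.0903, adjusted p = 0.27). By means the order was the other way, 0.642 in CmYLCVp and 0.704 in pUB10 plants.

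Outside the second set described below, plants with more edited reads held more patterns past the read minimum. In the plot of patterns against edited share, CmYLCVp plants fell into a rising band and a second set with few patterns at 4.00% to 36.9% edited, which are the plants described next, so a coefficient over all 46 mixes both sets and nothing is read from it (r = 0.843 for pattern number, 0.038 for leading share and 0.0629 for in-frame share). In the 36 CmYLCVp plants of the band, edited share and pattern number had Pearson's r = 0.951 and Spearman's rho = 0.966 (0.953 and 0.964 without the 2 plants farthest from the median edited share), given without a test because the band was told apart by its values. In the 10 plants of the second set, r was 0.195 and rho 0.00608. Over the 36 pUB10 plants r was 0.893 (permutation test, adjusted p = 3e-05) and rho 0.899 (adjusted p = 6e-05). Leaving out the 2 farthest plants gave r = 0.891. With the same mix of patterns, more edited reads bring more of them past the read minimum. The test against no relation therefore cannot tell whether plants with more editing held more different edits, and nothing is read from it. The share of the leading pattern was lower in pUB10 plants with more editing by rank (rho = -0.405, adjusted p = 0.0295), while r was -0.34 (adjusted p = 0.0528). Without the 2 farthest plants, 9 and 33, which had the highest edited shares, rho was -0.426 and r -0.353. At the low end, plants 31 and 22 lay inside the range of the controls, with leading shares of 39.1% and 34.6%. Rare patterns also fall below the read minimum there, which raises the leading share, so nothing is read from this relation. In the CmYLCVp band rho of this relation was -0.458 and r -0.176. The relation of edited share with in-frame share did not pass in pUB10 plants (r = 0.238, adjusted p = 0.225, rho = 0.326, adjusted p = 0.0797). The adjustment was made over 6 relations for each coefficient, the 3 over all CmYLCVp plants included.

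**Figure D2:**
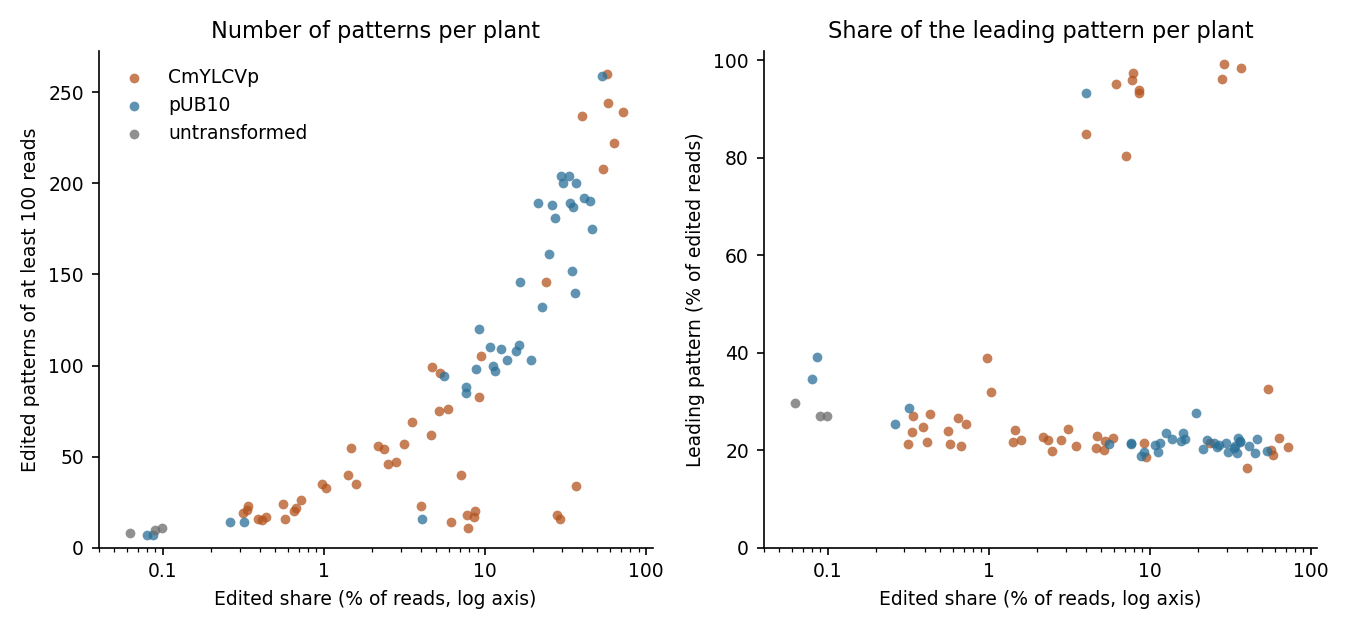
Number of edited patterns (left) and share of the leading pattern in % of edited reads (right) against the edited share in % of reads (log axis), 1 point per plant. Of the CmYLCVp plants, 10 sit at a leading share of 80.4% to 99.2% with 11 to 40 patterns, as does 1 pUB10 plant at 93.4%, and all others stay below 40%.

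The leading pattern, the most frequent one of a plant, took a median of 22.8% of edited reads in CmYLCVp plants (lowest 16.3%, highest 99.2%) and 21.5% in pUB10 plants (18.9% and 93.4%). The groups overlapped over nearly the whole range and differed in their upper part. The shift was 1.65 percentage points (0.313 to 3.57, p = 0.00889, adjusted p = 0.0178), and the means were 38.5% and 24.6%. The call was lost with a read minimum of 10 (difference of medians 0.520 points, adjusted p = 0.436) and among libraries below the median depth (0.283 points, adjusted p = 0.629).

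The highest leading shares belonged to plants in which 1 pattern held over 50% of the edited reads, a class formed with the values known and therefore described without a test. These were 10 of 46 CmYLCVp plants (21.7%) and 1 of 36 pUB10 plants (2.78%). CmYLCVp plant 32 had 29.1% of its reads edited, and 99.2% of those carried -6:31D, a deletion of 31 bp across the exon boundary. In plant 26, -16:24D held 98.4% of edited reads (edited share 36.9%), and in plant 14, -4:5D held 96.2% (28.2%). These 3 plants had the highest edited shares of the class. In the other CmYLCVp plants of the class the edited share was lower. Plant 43 had 97.5% of its edited reads in -6:10D (edited share 7.86%), plant 22 had 96.0% in -4:4D (7.78%) and plant 20 had 95.2% in -8:13D (6.17%). Plant 16 had 94.0% in -1:5D (8.54%), plant 4 had 93.3% in -2:9D (8.64%), plant 9 had 84.9% in -4:4D (4.00%), and plant 42 had 80.4% in the compound pattern -12:15D,6:4I, a deletion of 15 bp with an insertion of 4 bp (7.15%). The only such pUB10 plant, plant 14, had 93.4% in -1:5D (4.05%). The 11 plants thus had 9 different leading patterns, none of which was -5:9D.

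Apart from its leading pattern, each of these 11 plants held other patterns at a low level. Whether these are separate edits was not tested. The remaining edited reads made up 0.196% to 1.40% of all reads in the 10 CmYLCVp plants (median 0.547%) and 0.268% in the pUB10 plant, above the highest untransformed plant in each, and 11 to 40 patterns were counted per plant. The second pattern was -5:9D in CmYLCVp plants 4, 9, 22, 26, 32 and 43 and in the pUB10 plant, 1:5D in plants 14 and 16, -6:13D in plant 20 and -4:4D in plant 42. In CmYLCVp plants 4, 14, 16 and 20 the second pattern removed as many bases as the leading one, from another start. By edited share, the class held 7 of 24 CmYLCVp and 1 of 6 pUB10 plants between 1% and 10%, 3 of 5 and 0 of 25 between 10% and 50%, and none of the plants below 1% or above 50%.

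The plants outside this class are described without a test, since the leading share itself set the class. The 36 remaining CmYLCVp and 35 remaining pUB10 plants had median leading shares of 22.1% and 21.5%, median in-frame shares of 41.7% and 42.3%, and a median of the mean deletion length of 10.0 bp in both. Their median edited shares were 2.42% in CmYLCVp and 19.4% in pUB10 plants, with 54.5 and 132 patterns, effective pattern numbers of 12.0 and 14.1, and an evenness of 0.784 and 0.693 at the median. With its leading pattern left out, the edited share of all plants had medians of 1.11% in CmYLCVp and 13.4% in pUB10 plants.

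Across both groups -5:9D was the leading deletion. It led 33 of 46 CmYLCVp plants and 35 of 36 pUB10 plants. Counting it, 13 different patterns led a CmYLCVp plant and 2 led a pUB10 plant. Besides the plants above, it was not the leading pattern in CmYLCVp plants 44 (-34:42D, 26.6% of edited reads), 24 (-7:12D, 32.1%) and 6 (-1:4D, 19.9%). Its share of edited reads had a median of 21.3% in CmYLCVp plants (0.175% to 39.0%) and 21.5% in pUB10 plants (1.38% to 39.1%), and did not differ beyond the spread between plants (rank test over all tested patterns, adjusted p = 0.342).

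A total of 658 patterns passed the read minimum in at least 1 of the 82 plants, 486 of them in CmYLCVp and 495 in pUB10 plants. The 323 patterns found in both groups were 66.5% of the CmYLCVp patterns and 65.3% of the pUB10 patterns. Of all patterns 493 were single deletions, 163 held several indels, 55 included an insertion, 203 had a net length divisible by 3, and 283 occurred in 1 plant only. Only 6 patterns were present in all 82 plants.

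The share of edited reads was compared for the 200 patterns found in at least 10 plants. It was lower in CmYLCVp plants for 119 patterns and higher for 0 (adjusted p under 0.05), so that 59.5% of all tested patterns were called, and at an unadjusted p under 0.05, 137 were lower and 0 higher. Nothing is read from this count or its direction, because a pattern under 100 reads has a share of 0 and CmYLCVp plants had fewer edited reads (median 77050, against 351502 in pUB10 plants). Of the 119, 113 had a median of 0 in CmYLCVp plants, and a tested pattern was found in a median of 9 CmYLCVp and 22 pUB10 plants, so that many entered the test mainly through pUB10 plants. An alternative chosen after seeing the data drew 1000 edited reads from every plant with a read minimum of 10. Of 136 patterns tested, 16 were called, all lower in CmYLCVp plants, and 9 of them were among the 119. Where 1 pattern holds most edited reads of a plant, the shares of all others are low, which equal draws do not change. Such plants were 10 of 46 CmYLCVp and 1 of 36 pUB10 plants. Nothing is therefore read from the direction of the 16 either.

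The 10 patterns with the largest mean share were single deletions that overlap the far end of the guide, and 3 of them were called. For -4:8D, which removes 8 bp up to the first intron base, the medians were 6.08% of edited reads in CmYLCVp and 6.56% in pUB10 plants (adjusted p = 0.0159). For -6:10D they were 4.34% and 4.59% (adjusted p = 0.0254), and for -4:7D 3.95% and 4.50% (adjusted p = 0.0418). In each case the medians differed by under 1 percentage point. Values for the other 7 were close in both groups and did not pass. The medians were 5.12% and 5.39% for -1:5D (adjusted p = 0.0967), 5.31% and 5.17% for -4:4D (0.824), and 6.23% and 6.46% for -5:8D (0.158). They were 3.79% and 3.65% for -4:5D (0.873), 3.13% and 3.25% for -2:9D (0.431), and 2.59% and 2.01% for -16:24D (0.127). At equal draws -4:8D was called again (5.5% and 6.4%, adjusted p = 0.0372), and -6:10D and -4:7D were not. There -5:8D was called in addition (5.7% and 6.4%, adjusted p = 0.0261). All these calls include the 10 CmYLCVp plants dominated by 1 pattern, in which the shares of other patterns were low. In plant 32, for example, -4:8D held 0.0495% and -5:8D 0.0947% of edited reads. Whether the calls hold without these plants was not tested. Together the 10 patterns held a median of 68.1% of edited reads in CmYLCVp plants (0.615% to 99.4%) and 63.7% in pUB10 plants (57.7% to 100%), so that single CmYLCVp plants were almost without them. The 100% belonged to pUB10 plants 22 and 31, whose edited shares lay inside the range of the controls.

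**Figure D3:**
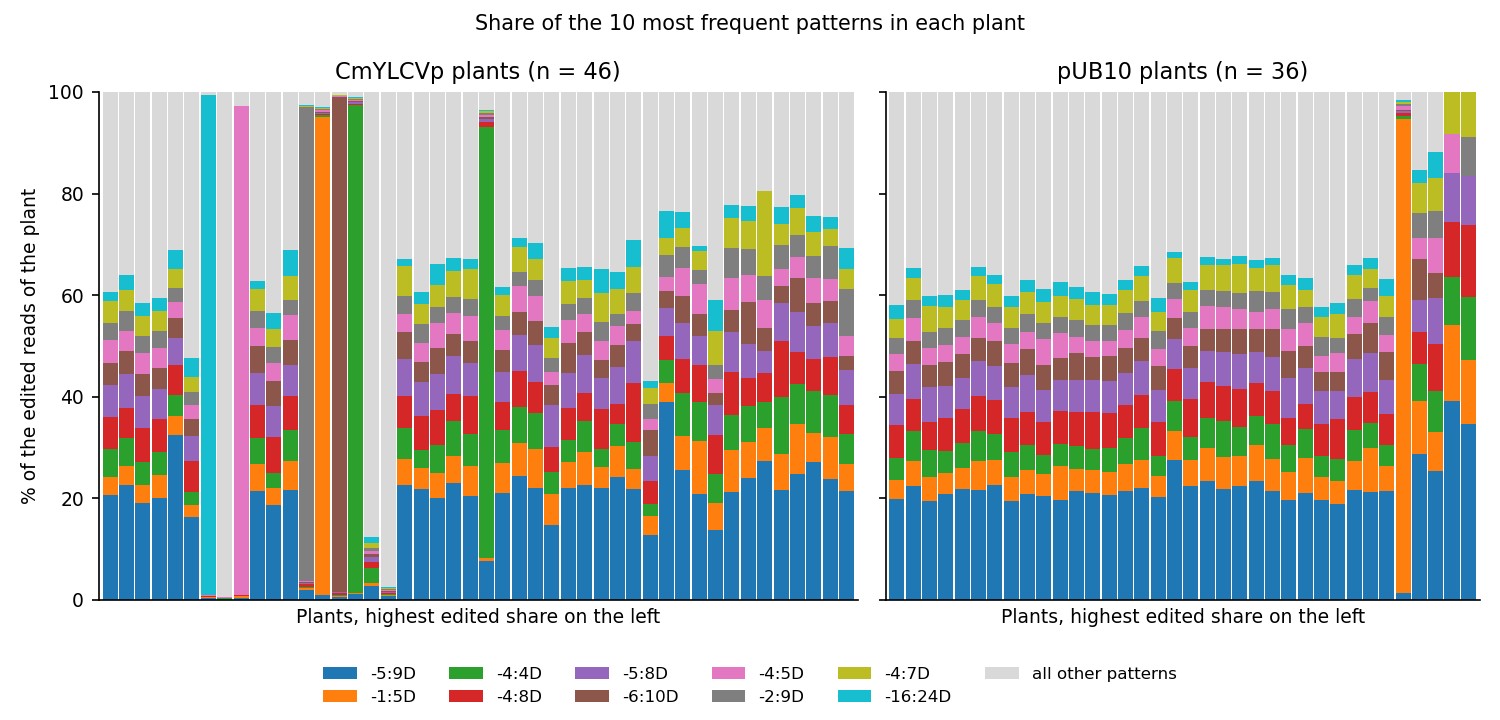
Share of the 10 most frequent patterns in the edited reads of each plant (stacked, %), CmYLCVp plants on the left and pUB10 plants on the right, ordered by falling edited share. Most bars have the same layers with -5:9D at the bottom, and single CmYLCVp bars consist almost wholly of 1 colour or of other patterns.

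Deletions of 9 bp were the most frequent class, with medians of 25.2% of edited reads in CmYLCVp and 25.1% in pUB10 plants. Those of 8 bp held 13.0% and 13.5%, those of 5 bp 9.82% and 10.3%, and those of 24 bp, where -16:24D lies, 2.81% and 2.41%. Deletions of 13 to 20 bp held 9.24% in CmYLCVp and 12.1% in pUB10 plants, and those over 20 bp 4.57% and 5.40%. For deletions over 20 bp the means had the other order, 10.08% in CmYLCVp and 5.75% in pUB10 plants, the highest CmYLCVp plant being at 99.3% and the highest pUB10 plant at 12.3%. The mean deletion length of a plant had medians of 9.94 bp in CmYLCVp and 9.93 bp in pUB10 plants (p = 0.735, adjusted p = 0.799). Deletions between repeats of at least 2 bp held 45.1% and 43.4% of edited reads at the median.

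**Figure D4:**
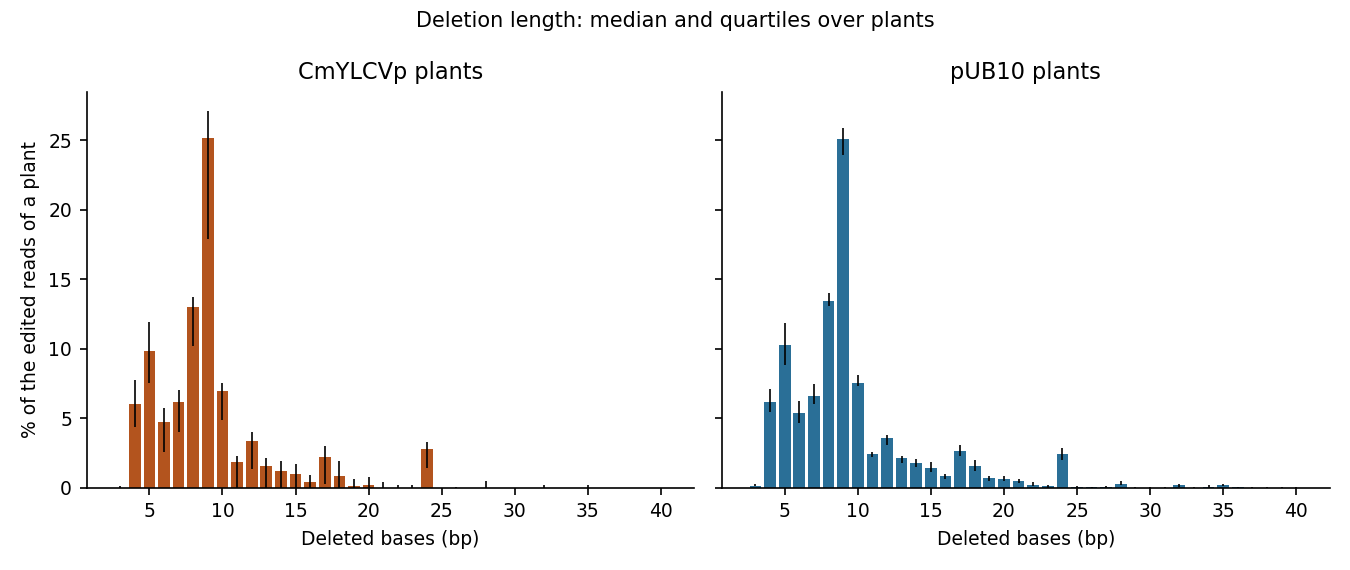
Share of edited reads by deletion length (bp), CmYLCVp plants on the left and pUB10 plants on the right. Bars are medians over plants and lines span the quartiles. Both groups have their highest bar at 9 bp, with 25.2% and 25.1%.

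An edit with a net length divisible by 3 leaves the reading frame in place where it stays inside the exon. In-frame patterns of any position held 41.6% of edited reads at the median in CmYLCVp plants (0.296% to 99.2%) and 42.3% in pUB10 plants (2.50% to 45.4%). The medians were close, and the spread was wider in CmYLCVp plants at both ends. The shift was -0.542 percentage points (-1.31 to 1.26, p = 0.496, adjusted p = 0.661). The highest values belonged to plants 26 (99.2%) and 4 (97.5%), whose leading deletions of 24 bp and 9 bp are in frame but pass the exon boundary in every placement. A further count kept only single deletions wholly inside the exon as labelled, and took the in-frame share of their reads, not of all edited reads. On this smaller base the medians were 8.30% in CmYLCVp and 9.36% in pUB10 plants (adjusted p = 0.0889). The deletion that led most plants is in frame but passes the boundary as labelled, so it is left out of this count.

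The share of edits that reach the splice acceptor depends on where deletions between repeats are placed. As labelled, deletions that remove intron bases held 74.9% of edited reads in CmYLCVp and 75.2% in pUB10 plants (p = 0.799). Counting only those that pass the boundary in every placement, and not -5:9D, -1:5D, -6:10D or -34:42D (whose products can also come from deletions inside the exon), they held 35.7% and 37.8% (adjusted p = 0.519). Edits that are in frame and keep the acceptor by this stricter count, among them -5:9D, held 27.8% and 28.3% at the median. Along the site, with deletions placed as labelled, nucleotide 18 of the guide, at position -1, was lost in 98.4% of the edited reads of CmYLCVp plants and 97.9% of those of pUB10 plants, the first intron base in 74.9% and 75.2%, and the second intron base in 27.8% and 28.8%.

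**Figure D5:**
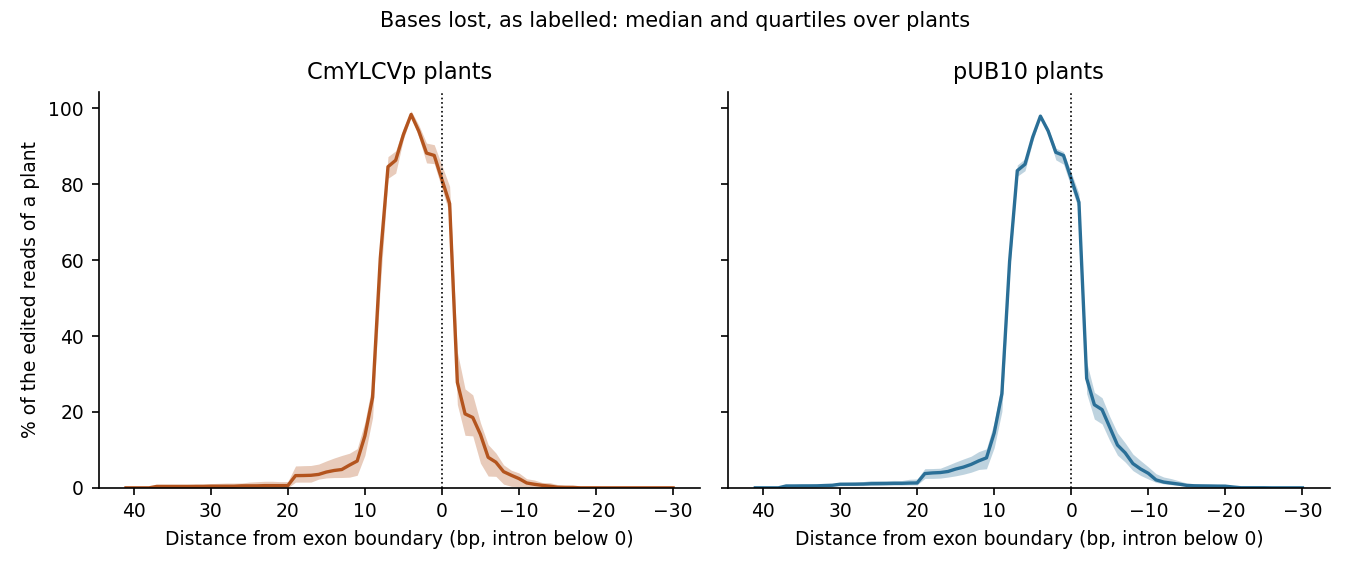
Share of edited reads that lost each base (%), with deletions placed as labelled, by distance from the exon boundary in bp with intron bases below 0, CmYLCVp plants on the left and pUB10 plants on the right. Lines are medians over plants and bands are quartiles. Both curves peak inside the exon, at 98.4% and 97.9%, and fall steeply after the first intron base.

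The same enzyme with the same guide read from the U6 promoter, without ribozymes, gives a scale for both groups. Those 49 T1 plants, also in the rdr6-15 background, had a median edited share of 15.2%. CmYLCVp plants were lower by a difference of medians of -10.9 points (shift -6.24, -14.6 to -1.82, adjusted p = 0.00846), which was not called by means (-7.32 points, adjusted p = 0.0988). For pUB10 plants the difference from U6 was 2.71 points (shift 1.16, -5.21 to 7.57, rank test, p = 0.673). Reads whose pattern was not resolved are not counted as edited. Their mean share was 5.58% in U6 plants (highest 52.4%), 1.07% in pUB10 and 1.41% in CmYLCVp plants. The comparisons with U6 were not repeated with these reads counted, so the small difference of pUB10 from U6 is not read as a direction. With nCasΦ, another variant, the same 2 guide cassettes in rdr6-15 gave medians of 9.01% in 54 CmYLCVp plants and 35.9% in 43 pUB10 plants. The fraction of pairs in which the CmYLCVp plant was higher was 0.298 with vCasΦ and 0.311 with nCasΦ, and the difference of -0.0122 between the enzymes did not pass (permutation within promoters, p = 0.885).

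The plants dominated by 1 pattern were also counted in these other T1 populations, as a description. They were 10 of 46 vCasΦ CmYLCVp plants, 14 of 54 nCasΦ CmYLCVp plants (25.9%), 1 of 36 vCasΦ pUB10 plants, 2 of 43 nCasΦ pUB10 plants (4.65%) and 5 of the 46 U6 plants with enough edited reads. The deletion -5:9D led 33 of 46, 36 of 54, 35 of 36, 42 of 43 and 15 of 46 plants in that order. In protoplasts, which express the constructs for a short time, the same vCasΦ cassettes gave mean edited shares of 26.5% with CmYLCVp and 23.9% with UBQ10, with 2 libraries each (difference 2.68 points, exact permutation p = 0.333, the smallest p this design allows).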

How the data were processed

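Leaf DNA was amplified around the gRNA10 site in 2 rounds of PCR (25 and 12 cycles) without molecular identifiers. Per the labels and the study's methods, reads were trimmed by the authors (Trim Galore), aligned around the guide site (BWA-MEM, BWA 0.7.17) and sorted into patterns by CrispRVariants, and the deposited read counts per pattern were the starting point here. The build behind the amplicons is not given in the sources used here, so coordinates come from a match to TAIR10.1 (RefSeq).

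Edited shares followed the study's criterion of 3 bp and 100 reads. Composition was computed for plants with at least 1000 edited reads, which all 82 plants had. Promoters were compared by permuting plants between them and recomputing the rank sum (two-sided, 100000 resamples, smallest p 1e-05), with Benjamini-Hochberg adjustment over 8 measures, and patterns by the same test over all 200 patterns in at least 10 plants. Python 3.11.15, NumPy 2.4.6, SciPy 1.17.1 and matplotlib 3.10.9 were used, and the scripts were tested on simulated data. Groups came from sample titles and no plant was left out. Plant numbers only name plants. Patterns named were the 10 with the largest mean share, called ones, those that led at least 3 plants and the leading one of each plant over 50% edited. Plants dominated by 1 pattern, their leading and second patterns, and the other plants not led by -5:9D were named after their values were seen. The plants, lists and measures were chosen with earlier results of these data known. Alternatives varied the read minimum, indel size, depth, thresholds, subtraction of controls and the summary.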

Additional observations from a re-analysis of the deposited data

Results flagged for a closer look

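Reads that the deposited files label as Other, whose pattern was not resolved, were not counted as edited. They made up 41.6% of the reads of CmYLCVp plant 27 (836369 of 2010271), the highest share in that group, in a plant with an edited share of 40.2%. The medians were 0.0743% in CmYLCVp and 0.839% in pUB10 plants, and the highest pUB10 plant had 4.968%. In 45 of 46 CmYLCVp and 32 of 36 pUB10 plants this share was above the highest untransformed plant (0.00687% to 0.00901% over the 3 controls). With these reads counted as edited, the difference of median edited shares was -14.6 points, and with plant 27 left out it was -13.9 points.

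Insertions and deletions of 1 or 2 bp were below the smallest size counted. They reached 100 reads in a pattern in 12 of 46 CmYLCVp plants, the highest at 0.4819% of reads, and in 31 of 36 pUB10 plants, the highest at 0.1475% (median 0.0468%), against 0 in the 3 untransformed plants.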

How the results depend on the processing

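Over 22 results and 136 alternative values, 114 kept direction and call. The limits of 1000000 reads per library and of 100 edited reads per plant left out no CmYLCVp or pUB10 plant. Between these groups they repeat the main values and are no separate check, though they are counted among the 114. The pattern number kept its call in all 16, those repeats included (differences -150.5 to -39.0). None of the 16 fully takes out the difference in edited reads. Calls were lost for the edited share by means (-8.12 points), with a replicate block (-13.5) and at or above the median depth (-20.9), for the effective pattern number with a read minimum of 10 (-0.908), for the leading share with that minimum (0.520), the block (1.12) and below the median depth (0.283), and for CmYLCVp against U6 by means (-7.32). The numbers only name plants, and same-numbered plants' deviations correlated at -0.100 for the edited share, 0.0820 for the pattern number and 0.332 for the leading share. Uncalled differences turned round for the splice acceptor share (0.141 with a read minimum of 10, 0.0695 with controls subtracted), for mean deletion length (-0.547 at a minimum of 0.01% of reads, -0.179 with controls subtracted, -0.488 thinned to equal depth, -0.0756 without patterns of several indels, -0.236 at 10000 edited reads), for evenness by means (-0.0625), for plants over 30% in place of 50% (-15.3 points), under 0.1% in place of 1% (-5.56 points), for the promoter difference between enzymes by means (5.97) and for the coefficient of edited with leading share over the 38 CmYLCVp plants with 10000 edited reads, which mixes both sets of plants (-0.0290). The count of called patterns was 211 of 349 with a read minimum of 10 and 16 at equal draws. Causes were not tested. Without each control in turn, the difference from controls was 4.23 to 4.25 points for CmYLCVp and 17.8 for pUB10 plants. Splits at the median depth, equal draws, Other counted as edited, acceptor in every placement and leaving out plant 27, and the pattern number in 1000 edited reads at 10 reads per pattern, were chosen after seeing the data. A pattern under 0.00990% of reads can be missed at the lowest depth.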
